A study of Mus musculus with 19 samples.

Results

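Phospholipase C enzymes cut the membrane lipid PIP2 into a pair of second messengers: IP3, which releases calcium from the endoplasmic reticulum, and diacylglycerol, which activates protein kinase C. The isoforms share a catalytic core and differ in what switches them on. Beta isoforms follow Gq-coupled receptors, gamma isoforms follow tyrosine kinases, delta and eta isoforms respond to calcium, and the epsilon isoform binds Ras-family GTPases. In the striatum this pathway lies downstream of group I metabotropic glutamate and M1-type muscarinic receptors.

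The genes described here are 10 phospholipase C genes, found by gene symbol in the authors' deposited tables: the delta isoforms Plcd4, Plcd1 and Plcd3, the beta isoforms Plcb1, Plcb3 and Plcb4, the gamma isoforms Plcg1 and Plcg2, the epsilon isoform Plce1 and the eta isoform Plch2. They are 10 of 49592 genes in the count files, and all 10 were among the 21513 genes that passed the filter on low counts. Plcd4 was chosen from the readout, as the 1 gene called by edgeR for amphetamine against saline in control mice, so that comparison is described below without a test. The other 9 were chosen as members of the same enzyme family with earlier results of these data known. A further 8 family genes served for comparison of levels.

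The data are striatal RNA-seq libraries of 19 males, 4 months old. All of the mice were D2RCre_floxCas9-EGFP animals, in which Cre follows the D2 dopamine receptor gene and switches on Cas9 with EGFP. Both knockout groups received AAV5 D2R-sgRNA in the medial prefrontal cortex (mPFC) and are labelled PFC_D2R-KO, while both control groups received AAV5 syn-mCherry there. The amphetamine knockout (n = 4) and amphetamine control (n = 5) mice were given 3 mg/kg amphetamine as the last injection on day 9, after 5 days of saline. The saline knockout (n = 5) and saline control (n = 5) mice were given saline only. The labels place the first injection 3 weeks after surgery and tissue collection 90 min after the amphetamine injection, and give no separate time for saline. The injection site was cortex and the sequenced tissue was striatum, so D2 receptor counts in these libraries do not check the knockout labels. The authors marked their table for the knockout mice as made without 1 library, which is not analysed here.

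Library totals ran from 57003408 to 85536346 counts. Markers of striatal projection neurons were present in every library, with a summed level over 10 genes from 1375 to 5216 CPM (counts scaled to library size, with the TMM correction for library composition). On principal components 5 libraries stood apart: numbers 2 and 3 of the amphetamine knockout mice, number 3 of the amphetamine controls, number 3 of the saline knockouts and number 5 of the saline controls. Values without these 5 are given beside the main results, and of the amphetamine knockout mice only numbers 1 and 4 remain in them. No defining marker of the 12 cell types examined was at 0 in any group. In whole tissue, fewer cells of a type and less RNA per cell cannot be told apart.

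Plcd4 encodes a calcium-sensitive delta isoform and lies on chromosome 1 from 74582047 to 74606953 in GRCm39 (ENSMUSG00000026173.16). RefSeq gives it a pair of annotated start sites. The windows around them are shown because Plcd4 is the gene on which these results turn, with the 50 bases from the start onward in capitals and the 250 bases before it in lower case (RefSeq, build GRCm38.p6, plus strand, chr1:74542639-74542938 for the first and chr1:74544110-74544409 for the second).
Plcd4 first start: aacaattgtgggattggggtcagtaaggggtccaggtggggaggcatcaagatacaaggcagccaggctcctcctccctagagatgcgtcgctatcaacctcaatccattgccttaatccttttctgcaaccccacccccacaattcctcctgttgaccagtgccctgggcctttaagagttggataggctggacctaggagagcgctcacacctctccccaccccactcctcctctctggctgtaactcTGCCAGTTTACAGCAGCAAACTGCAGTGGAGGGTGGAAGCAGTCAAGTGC
Plcd4 second start: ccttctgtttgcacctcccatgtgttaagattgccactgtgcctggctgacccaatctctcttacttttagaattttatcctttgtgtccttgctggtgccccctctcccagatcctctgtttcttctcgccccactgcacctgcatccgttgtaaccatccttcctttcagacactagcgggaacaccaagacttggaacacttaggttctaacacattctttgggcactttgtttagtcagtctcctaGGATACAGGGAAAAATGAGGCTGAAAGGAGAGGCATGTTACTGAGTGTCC

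The first window holds 55.3% G and C and the second 48.0%. Gene counts do not show which start the striatum uses. Neither window holds the cyclic AMP response element TGACGTCA, the AP-1 site TGANTCA, the E-box CACGTG or the heat shock element GAANNTTC on either strand. These letters occur in 1.79%, 7.81%, 7.15% and 7.86% of 32851 windows of the same length. Of the 14 windows that matched the 10 genes, those of Plcb3 and Plch2 hold the AP-1 site and that of Plcg2 holds the E-box and the heat shock element.

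Plcd4 was lower after amphetamine in knockout mice. These mice were not in the contrast that chose it, although they shared its fit and so entered the dispersion, scaling and filter. Its level was 15.3, 17.4, 15.7 and 14.6 CPM in the 4 amphetamine knockout mice, against 26.4, 19.6, 19.9, 20.8 and 18.02 CPM in the 5 saline knockout mice. The groups did not overlap, and the highest value belonged to saline knockout library 1. The means were 15.7 ± 1.21 CPM (SD, n = 4) after amphetamine and 20.9 ± 3.20 CPM (n = 5) after saline. The difference of the mean log2 CPM was -0.40, with a p of 0.0159 by a 2-sided exact permutation test, for which the smallest possible p is 0.00794. Across all genes the edgeR log2 fold change was -0.41 ± 0.0949 (SE; 95% interval -0.61 to -0.21), its p ranked 37 of 21513, and the adjusted p was 0.183. Plcd4 was therefore not called by edgeR, whereas DESeq2 on the same 19 libraries gave -0.40 with an adjusted p of 0.0262. The authors' deposited table gives -0.40 with an adjusted p of 0.128. Without saline knockout library 1 the edgeR log2 fold change was -0.31, and without the 5 libraries that stand apart it was -0.51.

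In control mice, the comparison from which Plcd4 was picked, its level was 14.0, 13.4, 13.8, 15.4 and 13.1 CPM after amphetamine, against 21.2, 23.7, 21.5, 22.1 and 20.6 CPM after saline. These groups did not overlap, as the choice of Plcd4 from them makes likely. The means of 13.9 ± 0.884 and 21.8 ± 1.18 CPM (SD, n = 5 each) correspond to a log2 fold change of -0.65 ± 0.0895 (SE). The value that chose Plcd4 was its adjusted p of 0.0099 by edgeR, which was 0.0603, 0.0793, 0.0519 and 0.0678 without amphetamine control library 1, 2, 3 and 5, taken out singly, and 1.00 with the scores of neighbouring-tissue markers as covariates. The number of reads behind these levels was 795 to 2111 per library.

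**Figure D1:**
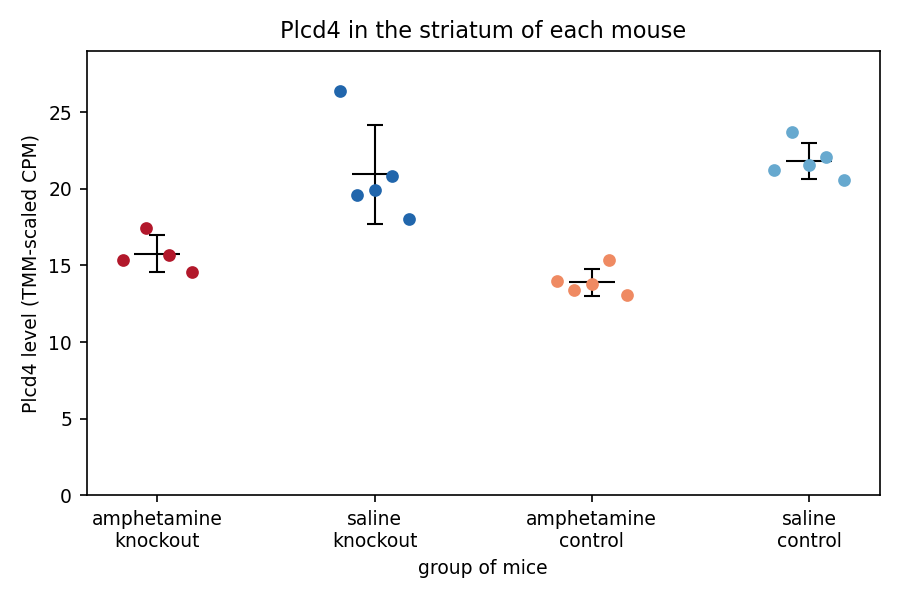
Plcd4 level in TMM-scaled CPM (vertical axis, from 0) for each mouse (points) in the 4 groups (horizontal axis), with the group mean and SD as black bars. Amphetamine knockout mice lie between 14.6 and 17.4 CPM and saline knockout mice between 18.02 and 26.4 CPM, and amphetamine control mice lie between 13.1 and 15.4 CPM and saline control mice between 20.6 and 23.7 CPM.

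Set by genotype, Plcd4 had a log2 fold change of -0.06 ± 0.0887 for knockout against control under saline and of 0.18 ± 0.0946 under amphetamine. Under saline it was -0.16 without saline knockout library 1 and -0.014 without saline knockout library 5. Its amphetamine response differed between genotypes by 0.24 ± 0.13 (95% interval -0.03 to 0.51, knockout minus control). Without the 5 libraries that stand apart, the value under amphetamine was 0.10 and that difference 0.16. These comparisons contain the control mice in which Plcd4 was picked, so they are given without a test. The ranges overlapped under each treatment, with 14.6 to 17.4 CPM in amphetamine knockout against 13.1 to 15.4 CPM in amphetamine control mice, and 18.02 to 26.4 CPM in saline knockout against 20.6 to 23.7 CPM in saline control mice.

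The ends of Plcd4 overlap a pair of genes by the deposited coordinates, Zfp142 (2668 bases) and Usp37 (1397 bases), both of which lie on the opposite strand in GENCODE M21. No source used here gives the strand setting of the counting, and reads from the shared bases could be assigned to either gene or dropped. Zfp142 averaged 35.1 CPM, with log2 fold changes after amphetamine of 0.07 in knockout and -0.09 in control mice. Usp37 averaged 30.8 CPM, with -0.01 in knockout and 0.0041 in control mice. Neither showed a decrease of the size seen for Plcd4.

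Markers of other cell types differed between the same groups. In knockout mice, 6 of 6 cortical projection neuron markers were above 0 (median log2 fold change 1.03), with summed levels from 87.1 to 972 CPM after amphetamine and from 102 to 441 CPM after saline. Striatal projection neuron markers were below 0 for 9 of 10 (median -0.35), at 1375 to 3966 CPM after amphetamine and 2170 to 4631 CPM after saline. Ependymal markers were below 0 for 6 of 6 (median -0.20), at 24.0 to 39.9 CPM after amphetamine and 23.0 to 46.3 CPM after saline. In control mice, 6 of 6 ependymal markers were below 0 (median -0.68), and their summed level of 11.9 to 26.3 CPM after amphetamine did not overlap the 28.7 to 40.9 CPM after saline. Septal and pallidal markers were below 0 for 4 of 4 there (median -0.60), at 82.8 to 189 CPM after amphetamine and 179 to 280 CPM after saline, and hypothalamic markers for 5 of 5 (median -0.62). Cortical projection neuron markers were above 0 for 6 of 6 in control mice (median 0.82), at 300 to 846 CPM after amphetamine and 52.5 to 517 CPM after saline. In knockout mice, septal and pallidal markers were below 0 for 3 of 4 (median -0.15), cholinergic neuron markers were below 0 for 5 of 5 (median -0.35) and choroid plexus markers above 0 for 4 of 5 (median 1.48). The summed choroid plexus level ran from 26.1 to 671 CPM (median 41.1) after amphetamine and from 41.9 to 55.0 CPM (median 46.0) after saline. Hypothalamic markers in knockout mice were above 0 for 3 of 5 (median 0.31). Their summed level, however, was 2.73 to 19.3 CPM after amphetamine, below the 41.4 to 97.4 CPM after saline without overlap. Oligodendrocyte markers were below 0 for 5 of 5 in knockout (median -0.13) and 3 of 5 in control mice. Microglial markers were above 0 for 3 of 5 in knockout and 5 of 5 in control mice (median 0.38). Over all 19 libraries, which share the groups, Plcd4 correlated with the septal and pallidal score at 0.645, the ependymal score at 0.643 and the cortical score at -0.618. With group means taken off these correlations were 0.18, 0.246 and -0.338. For the choroid plexus score the correlation was 0.121 over all libraries and 0.46 with group means taken off. Astrocyte markers were below 0 for 4 of 6 in both genotypes, with medians of -0.03 in knockout and -0.17 in control mice. With scores of cortical, ependymal and septal or pallidal markers as covariates, the Plcd4 log2 fold change was -0.37 in knockout mice (adjusted p = 0.36 by edgeR) and -0.56 in control mice.

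By the pattern of log2 CPM over all 19 libraries, the genes most like Plcd4 were Ddo (Pearson r = 0.885, Spearman rho = 0.884), Nat8f4 (0.867 and 0.826), Aldh4a1 (0.855 and 0.851) and Cyp2j9 (0.847 and 0.782). The next were Hspa8 (0.846 and 0.774), Gm973 (0.846 and 0.805), Hspa5 (0.839 and 0.814) and H2bc21 (0.826 and 0.774). All 8 had log2 fold changes below 0 after amphetamine in both genotypes, from -0.14 to -0.45 in knockout and from -0.25 to -0.69 in control mice. This is a description over 19 libraries that share the 4 groups, among them those that chose Plcd4. After each group mean was taken off, the most similar genes were others, led by Tmem67 (r = 0.791, rho = 0.663). Among them were also Soat2 (r = 0.761), Ifi30 (0.761), Cab39l (0.75), Acss3 (0.736) and the pseudogene Gm5575 (0.731). For Ifi30 the rank correlation was only 0.365. Soat2 and Gm5575 averaged only 0.165 and 0.114 CPM, so their correlations rest on few reads.

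Levels can be compared between genes only per length, for which the authors' FPKM (counts scaled to gene length and library size) was used. Plcb1, the main beta isoform of forebrain neurons, was highest at a mean of 36.2 FPKM over 19 libraries (range 22.2 to 48.3) and stood in all 19 above the next gene. Plcg1, which acts below neurotrophin and other tyrosine kinase receptors, followed at 16.3 FPKM and Plcb4, a beta isoform known from cerebellar and thalamic neurons, at 12.1 FPKM. Plch2, a calcium-sensitive isoform of neurons, had 7.92 FPKM. Plcb4 exceeded Plch2 in 15 of 19 libraries, with a mean difference of 4.16 FPKM, less than the SD of that difference between libraries (4.80). Plcd4 at 3.89 FPKM differed from Plcb3 at 4.39 and from Plcd3 at 3.73 FPKM by less than the SD of the difference over the 19 libraries. Plcb3 exceeded Plcd4 in 12 of 19 libraries and Plcd4 exceeded Plcd3 in 9 of 19. By group, mean Plcd4 was below mean Plcd3 after amphetamine (3.37 against 4.12 FPKM in knockout, 2.98 against 3.81 in control mice). After saline it was above (4.45 against 3.28 FPKM in knockout, 4.66 against 3.81 in control mice). Plcd1, the best-studied delta isoform, at 3.06 FPKM exceeded Plce1 at 2.90 FPKM in 13 of 19 libraries, also by less than that SD on average. Plcg2, the isoform of immune cells and microglia, was lowest at 1.00 FPKM.

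Among all 18 family genes, Plcb1 made up 17.6% to 31.5% of the summed FPKM of a library, and Plcd4 1.82% to 3.86%. Plcl2, a catalytically inactive relative, was second to Plcb1 at 19.5 FPKM. Mean FPKM placed Plcb1 at percentile 91.5 of the genes tested, Plcd4 at 53.3 and Plcg2 at 35.9.

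**Figure D2:**
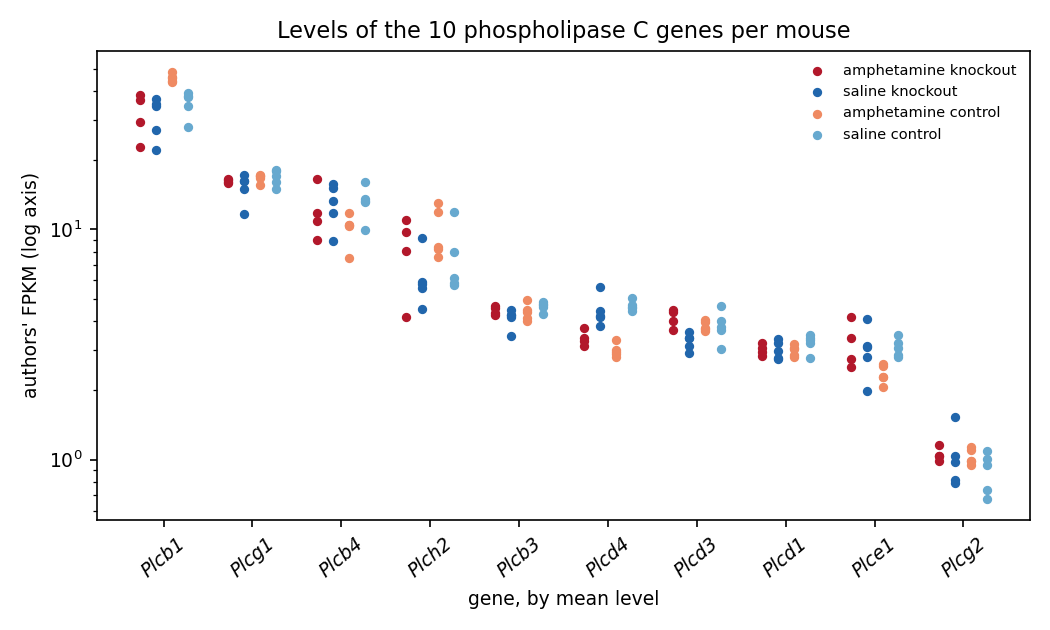
The authors' FPKM (vertical log axis) of each of the 10 genes (horizontal axis, by mean level) in every mouse (points), coloured by group. Plcb1 ranges from 22.2 to 48.3 FPKM and Plcg2 from 0.677 to 1.53 FPKM, and for Plcd4 the saline points lie above the amphetamine points of the same genotype.

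Neither of the other delta isoforms was called. Plcd3, a membrane-bound delta isoform, was at 11.1, 13.5, 13.1 and 12.1 CPM in amphetamine knockout mice, against 9.41, 10.2, 8.88, 10.2 and 10.9 CPM in saline knockout mice. The amphetamine mice were all above the saline mice, by a log2 fold change of 0.32 ± 0.104 (SE) that was not called (adjusted p = 0.282 by edgeR). Without the 5 libraries that stand apart the value was 0.17. In control mice Plcd3 had 11.2, 11.9, 12.2, 10.9 and 11.3 CPM after amphetamine, inside the span of 9.08, 11.4, 11.01, 12.1 and 14.0 CPM after saline, with a log2 fold change of 0.00 ± 0.0986 (0.05 without those 5 libraries). Its response differed between genotypes by 0.32 ± 0.143, which was not called (adjusted p = 0.525 by edgeR) and was 0.12 without those 5 libraries. Plcd1 stayed within 7.39 to 9.44 CPM in all 19 libraries, with log2 fold changes after amphetamine of -0.0090 ± 0.0909 in knockout and -0.11 ± 0.0859 in control mice. Its 95% interval in knockout mice ran from -0.20 to 0.18.

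Plcb1, which couples Gq receptors to IP3 in forebrain neurons, had its highest values in amphetamine control mice. It stood at 265, 165, 209 and 277 CPM in amphetamine knockout mice and at 330, 326, 316, 315 and 348 CPM in amphetamine control mice, so the groups did not overlap. The log2 fold change of knockout against control under amphetamine was -0.51 ± 0.148 (SE), not called by edgeR (adjusted p = 0.225) or by DESeq2 (adjusted p = 0.0784). In saline knockout mice Plcb1 stood at 265, 252, 162, 195 and 248 CPM, against 270, 273, 248, 201 and 281 CPM in saline control mice, which overlap (log2 fold change -0.18 ± 0.138, adjusted p = 0.693 by edgeR). After amphetamine its log2 fold change was 0.03 ± 0.146 in knockout mice (adjusted p = 0.953 by edgeR) and, as a description, 0.36 ± 0.138 in control mice, where it was 0.08 with the tissue covariates. Under amphetamine, 10 of 10 striatal projection neuron markers were below 0 for knockout against control (median log2 fold change -0.79), with summed levels of 1375 to 3966 CPM in knockout and 4048 to 5216 CPM in control mice. Their part in the Plcb1 difference was not tested. Without the 5 libraries that stand apart, the Plcb1 value under amphetamine was -0.28.

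Plce1, which links Ras-family GTPases to PIP2 cleavage, was at 25.99, 39.3, 31.5 and 23.7 CPM in amphetamine knockout mice, against 21.6, 19.4, 21.5, 24.4 and 24.0 CPM in amphetamine control mice. All knockout values but that of library 4 lay above the control values, and the log2 fold change of 0.44 ± 0.156 (SE) was not called (adjusted p = 0.263 by edgeR). It was 0.15 without the 5 libraries that stand apart. After amphetamine the log2 fold change of Plce1 was 0.08 ± 0.156 in knockout mice, where saline values were spread from 18.9 to 38.7 CPM, and it was -0.32 without the 5 libraries that stand apart. In control mice it was -0.39 ± 0.148, as a description, and the amphetamine values lay below the saline values of 26.2, 29.0, 30.4, 32.8 and 26.9 CPM. With the tissue covariates that value was -0.24. The difference between genotypes in this response was 0.47 ± 0.215 (adjusted p = 0.534 by edgeR) and 0.09 without those 5.

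Plcb4 and Plch2 varied widely within groups and moved in opposite directions across libraries (Pearson r = -0.60 over 19 libraries after group means were taken off). Plcb4 had 46.5 to 86.3 CPM in amphetamine knockout and 46.8 to 82.4 CPM in saline knockout mice, and 39.4 to 61.0 CPM in amphetamine control and 52.3 to 83.3 CPM in saline control mice. Its log2 fold change after amphetamine was -0.11 ± 0.177 in knockout and -0.38 ± 0.167 in control mice, and that in knockout mice was -0.32 without the 5 libraries that stand apart. Plch2 had 23.4 to 60.9 CPM in amphetamine knockout and 25.5 to 51.8 CPM in saline knockout mice, and 42.9 to 73.0 CPM in amphetamine control and 32.1 to 67.1 CPM in saline control mice. Its log2 fold change was 0.40 ± 0.272 in knockout and 0.38 ± 0.258 in control mice, with overlapping groups in both. Without those 5 libraries the value in control mice was 0.19.

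Neighbouring-tissue markers moved with both genes. With group means taken off, the correlation of Plcb4 with the score of 4 septal and pallidal markers was 0.839 over 19 libraries. That of Plch2 with the score of 6 cortical projection neuron markers was 0.874. The part of dissection and of depth, which differed between libraries, was not tested. With the 3 tissue scores as covariates, the amphetamine log2 fold change of Plch2 was -0.03 in knockout and -0.36 in control mice. That of Plcb4 was 0.05 in knockout and 0.02 in control mice.

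Plcb3, a widely expressed beta isoform, and both gamma isoforms were not called after amphetamine in knockout mice. Plcb3 had a log2 fold change after amphetamine of 0.11 ± 0.0799 in knockout and -0.08 ± 0.0755 in control mice. Plcg1 had 0.08 ± 0.0868 in knockout and -0.0090 ± 0.0819 in control mice, within 60.2 to 92.8 CPM over all libraries. Plcg2 had 0.02 ± 0.172 in knockout and 0.21 ± 0.163 in control mice, at 2.92 to 6.59 CPM. Plcb3 overlaps Ppp1r14b by 1503 bases and Plcg1 overlaps Zhx3 by 27053 bases, each on the opposite strand, so their counts may hold reads of these neighbours or lack ambiguous ones.

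**Figure D3:**
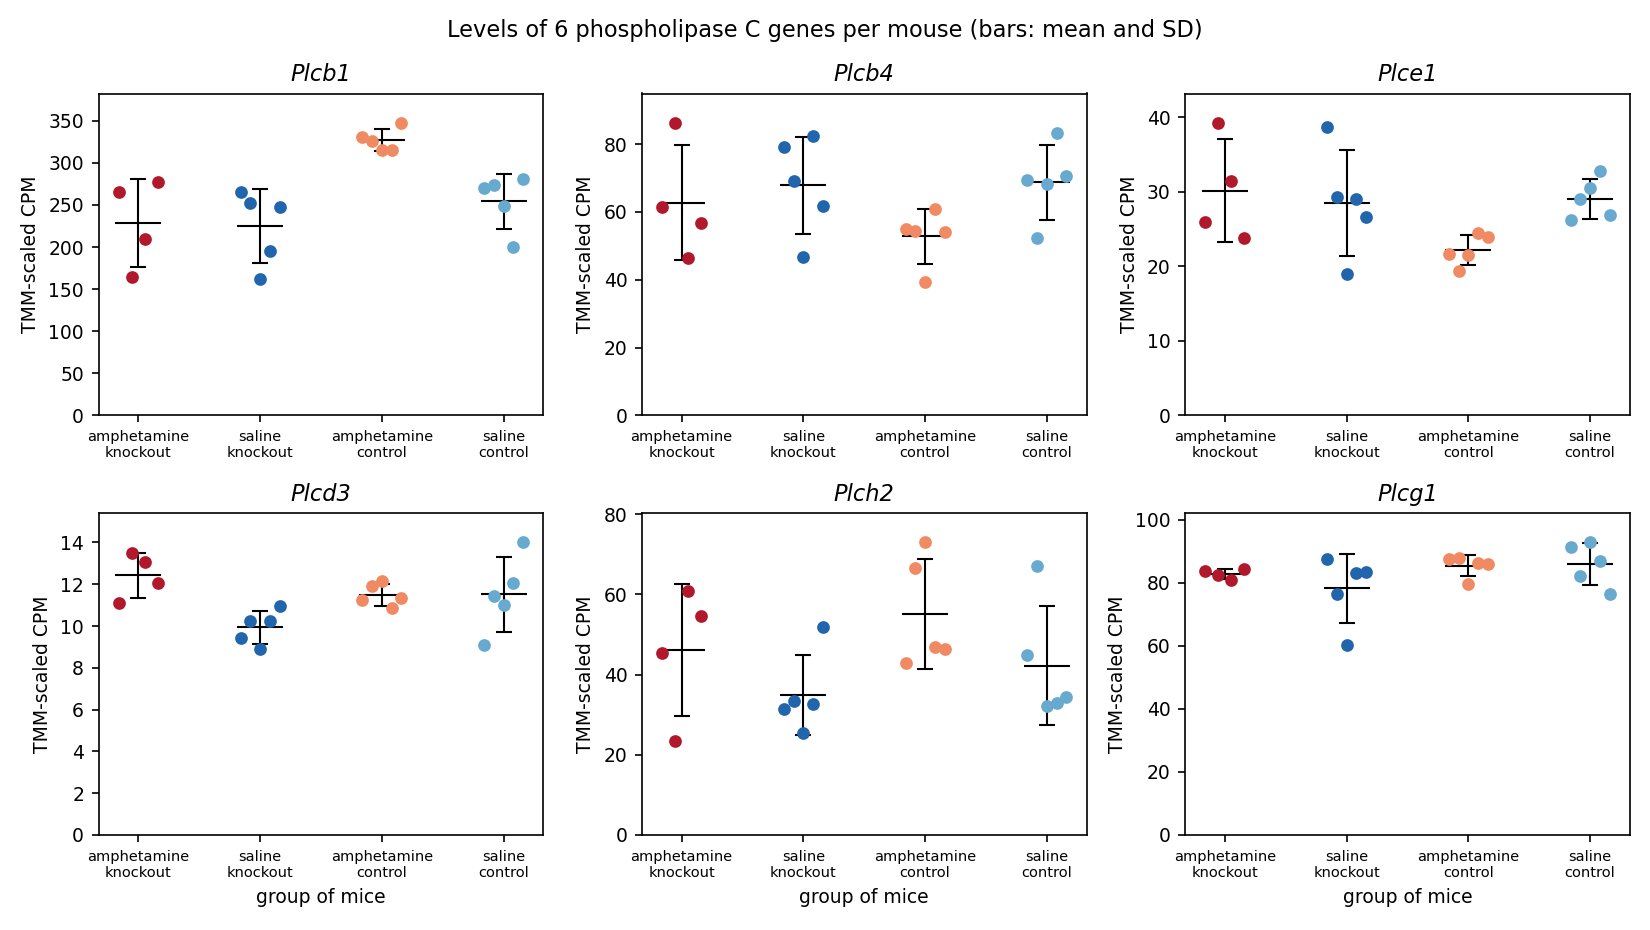
TMM-scaled CPM (vertical axes, from 0) of 6 of the genes in each mouse (points) by group (horizontal axes), with mean and SD as black bars. Plcb1 in amphetamine control mice lies at 315 to 348 CPM, above every other group, while the groups of Plcb4, Plch2 and Plcg1 overlap.

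Counted over the whole set, 0 of 10 genes were called by edgeR for amphetamine against saline in knockout mice, where 0.00465% of the 21513 genes tested were called. At an unadjusted p under 0.05 there were 2 of 10, Plcd4 lower and Plcd3 higher, against 12.1% of all genes. DESeq2 called 1 of 10, Plcd4, against 0.45% of all genes called and 0.216% called lower. Groups did not overlap for the same 2 genes, against 5.07% of all genes (2.84% lower and 2.22% higher). The authors' deposited table calls 0 of 10, against 0.665% of the genes it tests. The median log2 fold change was 0.05 over the 10 genes and -0.0059 over all genes.

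In control mice, the comparison behind the choice, edgeR called 1 of 10, Plcd4, and 0.00465% of all genes. That call is what chose Plcd4, so the count was fixed in advance and gives no support. The authors' deposited table calls 3 of 10, Plcd4 and Plce1 lower and Plcb1 higher, against 4.21% of the genes it tests. Their log2 fold changes there are -0.65, -0.39 and 0.36. Groups did not overlap for the same 3 genes, against 3.9% of all genes (1.68% lower and 2.22% higher). Plcd4 enters both counts through its choice, and apart from it they hold only Plce1 and Plcb1. The median over the 10 genes, Plcd4 included, was -0.05 against -0.0074 over all genes.

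**Figure D4:**
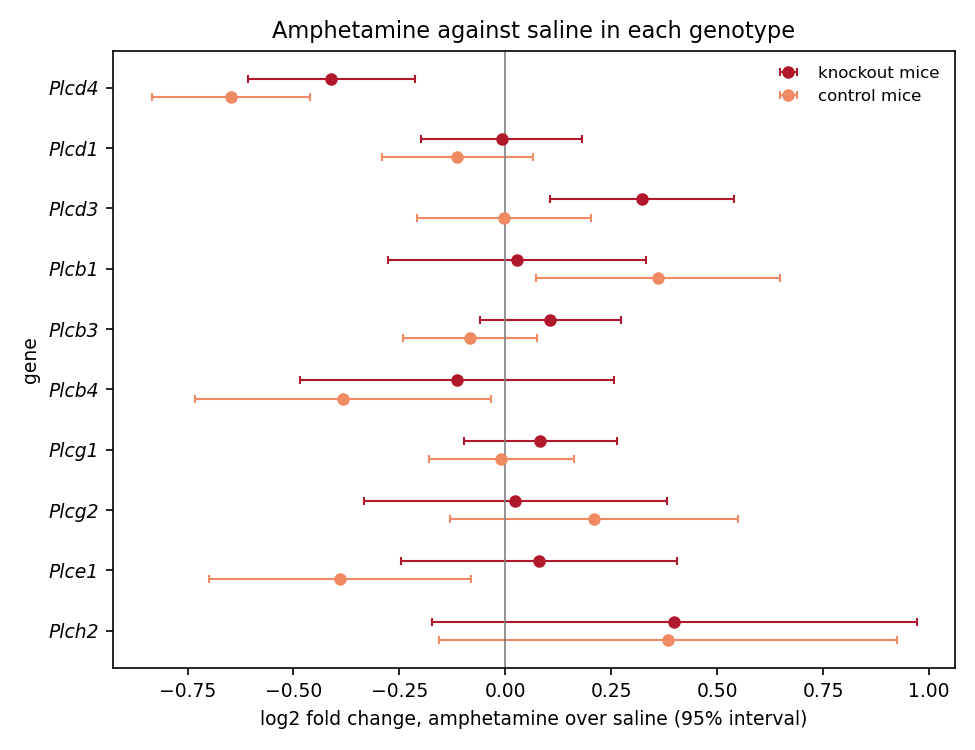
Log2 fold change of amphetamine over saline (horizontal axis) with its 95% interval for the 10 genes (vertical axis) in knockout mice (dark red, upper point of each pair) and control mice (orange, lower point). For Plcd4 the interval in knockout mice runs from -0.61 to -0.21, and that in control mice, -0.83 to -0.46, belongs to the comparison that chose the gene and is no test. For Plcd1, Plcb3, Plcg1, Plcg2 and Plch2 both include 0.

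For knockout against control, the 9 genes other than Plcd4 were tested. Under saline edgeR called 0 of 9 (0% of all genes) and DESeq2 0 of 9 (0% of all genes). At an unadjusted p under 0.05 were Plcd3 at -0.21 ± 0.0986 (-0.09 without the 5 libraries that stand apart) and Plcb3 at -0.17 ± 0.0755, against 7.94% of all genes. Groups overlapped for all 10 genes, whereas 0.911% of all genes had groups that did not overlap (0.4% lower and 0.511% higher). The authors' deposited table calls 0 of 10, against 0.00439% of the genes it tests. Including Plcd4, 9 of 10 lay below 0, with a median of -0.12 against 0.0046 over all genes. Under amphetamine edgeR called 0 of 9 (0% of all genes) and DESeq2 0 of 9 (0.453% of all genes). At an unadjusted p under 0.05 were Plcb1 and Plce1, against 12.8% of all genes. Groups did not overlap for 1 of the 9, Plcb1, against 6.79% of all genes (3.71% lower and 3.08% higher). For the difference in amphetamine response, edgeR called 0 of 9 (0% of all genes) and DESeq2 0 of 9 (0.0731% of all genes). Plcd3 and Plce1 had an unadjusted p under 0.05, against 9.25% of all genes. These comparisons share groups of mice with those above.

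The wider phosphoinositide pathway was followed in 7 lists chosen with earlier results known. No list member was called by edgeR in any of the 5 comparisons, and 1 of the 76 genes, the receptor gene Htr2b, did not pass the low-count filter. In knockout mice after amphetamine, diacylglycerol kinases and lipases, which consume diacylglycerol, had 10 of 12 above 0 (median 0.11). Lipid kinases and transfer proteins that build PIP2 had 14 of 18 above 0 (median 0.08). Protein kinase C and RasGRP genes, many but not all of them targets of diacylglycerol, had 6 of 12 above 0 (median -0.02). Gq-coupled receptors had 9 of 15 above 0 (median 0.12), Gq family proteins 3 of 4 (median 0.13), IP3 receptors 3 of 3 (median 0.08) and IP3 kinases and phosphatases 6 of 11 (median 0.03). Over all genes 10524 of 21513 were above 0 (median -0.0059), and none of these lists was tested as a list.

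The list members with the smallest p in knockout mice after amphetamine were not called, and those named here had adjusted p from 0.278 to 0.882 by edgeR. They were Prkci, an atypical protein kinase C, at 0.20 ± 0.0719, Itpr3, an IP3 receptor, at 0.67 ± 0.192 and Itpr2 at 0.04 ± 0.0965, and Pitpnm3, a lipid transfer protein, at 0.49 ± 0.15 and Pip5k1c at 0.25 ± 0.129. Dagla, which makes the endocannabinoid 2-AG from diacylglycerol, had 0.32 ± 0.126, Dgke 0.14 ± 0.0682, Adra1d 0.94 ± 0.378, Ntsr1 0.37 ± 0.188, Gna11 0.15 ± 0.0716, Gna14 -0.38 ± 0.187, Impa1 -0.15 ± 0.0729 and Itpka 0.30 ± 0.173. The other 8 family genes were not called in this comparison either. Their smallest p belonged to Plcz1, a sperm isoform at 1.43 CPM on average, at 1.05 ± 0.388, and to Plcl2 at -0.13 ± 0.0889. In amphetamine knockout mice Plcz1 was at 1.41, 1.18, 5.99 and 1.47 CPM, against 0.764 to 1.68 CPM in saline knockout mice. The highest value belonged to library 3, which is among those that stand apart.

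In control mice after amphetamine, protein kinase C and RasGRP genes had 11 of 12 above 0 (median 0.24), against 10404 of 21513 over all genes (median -0.0074). Their smallest p belonged to Prkcz at 0.26 ± 0.091 and Rasgrp2, a striatal exchange factor for Rap, at 0.56 ± 0.203. Of the other lists, Itpkb, which phosphorylates IP3, had -0.46 ± 0.146 and Itpka 0.46 ± 0.164, Chrm5 -0.97 ± 0.325 and Chrm1 0.40 ± 0.17, Itpr1 0.48 ± 0.195 and Itpr2 -0.09 ± 0.0912. Pip4k2c had 0.28 ± 0.119 and Pip5k1b -0.33 ± 0.16, Dgkk -0.93 ± 0.393 and Daglb 0.16 ± 0.0728, and Gna15 0.49 ± 0.185 and Gnaq -0.06 ± 0.0683. Among the other family genes Plch1 had -0.42 ± 0.16 and Plcl2 0.16 ± 0.0837. In the same comparison 10 of 10 striatal projection neuron markers were above 0 (median 0.46), and their part was not tested.

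For knockout against control under amphetamine, protein kinase C and RasGRP genes had 10 of 12 below 0 (median -0.22), with Prkcb, an abundant neuronal form, at -0.50 ± 0.134 and Rasgrp1 at -0.59 ± 0.177. Diacylglycerol kinases and lipases had 8 of 12 below 0 (median -0.12), with Dgkb, the diacylglycerol kinase of striatal neurons, at -0.49 ± 0.136 and Dgkh at -0.38 ± 0.181. IP3 receptors included Itpr1, the main form of neurons, at -0.61 ± 0.209 and Itpr3 at 0.10 ± 0.192. Inpp5a, which removes a phosphate from IP3, had -0.23 ± 0.0795 and Itpkb 0.44 ± 0.154. Ntsr1 had 0.57 ± 0.188, Chrm5 0.77 ± 0.341, Pip5k1b 0.51 ± 0.169, Pip5k1a -0.18 ± 0.0957, Gnaq 0.18 ± 0.0723 and Gna11 0.11 ± 0.0717. Plcl2 had -0.29 ± 0.0892 and Plcz1 1.03 ± 0.39, with 5.99 CPM of Plcz1 in amphetamine knockout library 3 and 1.18 to 1.47 CPM in the others. Striatal projection neuron markers were lower in the same comparison, as given for Plcb1.

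For knockout against control under saline, Itpr3 had the smallest p of the pathway at -0.63 ± 0.183 (adjusted p = 0.614 by edgeR). Diacylglycerol kinases and lipases had 11 of 12 below 0 (median -0.10), with Dgki at -0.46 ± 0.225 and Dagla at -0.24 ± 0.119. Itpr1 had -0.21 ± 0.194, Pitpnm3 -0.29 ± 0.142, Pi4ka -0.20 ± 0.117, Prkcb -0.24 ± 0.125, Prkca -0.30 ± 0.19, Impa1 0.14 ± 0.0686, Inpp5j -0.35 ± 0.209, Gna14 0.33 ± 0.176, Gna11 -0.06 ± 0.0677, Adra1a -0.34 ± 0.229 and Hrh1 0.31 ± 0.225. Of the other family genes Plcxd1 had 0.11 ± 0.095 and Plcz1 0.28 ± 0.377. For the difference in amphetamine response between genotypes, Itpr3 also had the smallest p of the pathway, at 0.74 ± 0.265 (adjusted p = 0.519 by edgeR). Both Itpr3 values, and its 0.67 after amphetamine in knockout mice, contain the same saline knockout mice, so they are not separate results.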

How the data were processed

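The authors deposited whole-number gene counts per mouse. Per the submitters' processing notes, the tools were STAR 2.6.0c and HTSeq 0.6.1p2, with FastQC 0.11.5, Trim Galore 0.5.0, DESeq2 1.26.0s and R 3.6.1 also named, and the build was GRCm39. No source used here gives the annotation release or the strand setting. Per the file headers, 3 deposited comparison tables hold the authors' log2 fold changes with standard errors, p-values, FPKM, a mean count signal and a test score (the last 2 not used here). The FPKM of the deposited tables do not equal count over library total over a single fixed gene length in every library.

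The main test was that of edgeR 4.0.16 under R 4.3.3 (filterByExpr, TMM, robust quasi-likelihood fit of 4 group means over 19 libraries, Benjamini-Hochberg adjustment, calls at an adjusted p under 0.05). The standard error is the log2 fold change over the root of F. Log2 CPM used a prior count of 2. DESeq2 1.42.0 was an alternative. The fit was tested on simulated data. The named genes are the 10 members, 8 family genes, overlapping coding genes, the 2 genes per pathway list with the smallest p in each pairwise comparison and the 8 most like Plcd4. For the genotype difference, the pathway gene with the smallest p is named. Some genes that this rule names are not reported here. Members and lists were chosen with earlier results of these data known. Each mouse is 1 library, and no 2 libraries were copies (smallest chi-square per degree of freedom 10.3 over 171 pairs).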

Additional observations from a re-analysis of the deposited data

Results flagged for a closer look

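Plcg1 in amphetamine control library 3 stood at 79.6 CPM, below the next value of 85.8 CPM, a gap of 0.748 of the range of its group of 5. That gap passed Dixon's 95% critical value of 0.71, and it was the only such value in the 40 groups of the 10 genes. Chance flags about 1 in 20 groups.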

How the results depend on the processing

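The edgeR count of called genes was 1 for amphetamine in each genotype and 0 otherwise. With DESeq2 it was 96 for amphetamine in knockout mice, 199 for amphetamine in control mice, 103 for knockout against control under amphetamine and 14 for the genotype difference. Among the 10 genes DESeq2 called 1 in knockout mice, Plcd4. Tissue covariates gave 0 calls for amphetamine in both knockout and control mice. Without the 5 libraries that stand apart the counts were 2 in knockout mice, 39 in control mice and 1 for knockout against control under amphetamine. The exact test of Plcd4 in knockout mice then gave -0.49 with p = 0.0667, the smallest possible at that size. Leaving out 1 library gave -0.45 to -0.31 for that difference, with p from 0.0179 to 0.0357, and 0 calls among the members. The count of called genes ranged from 0 to 3 in knockout mice (0 without amphetamine knockout library 1, 3 or 4 or saline knockout library 1 or 4, 3 without saline knockout library 3). In control mice it ranged from 0 to 4 (0 without amphetamine control library 1, 2, 3 or 5, 2 without saline control library 1, 2 or 4, 4 without saline control library 5), and the other comparisons stayed at 0. Libraries with the same number in the sample titles correlated at -0.22 to 0.15. In amphetamine knockout mice these numbers close the gap of the library left out, so after it they depart from the authors' own labels. For these mice neither the correlations nor the replicate block can show whether the animals were paired. With the replicate block 5 genes were called in knockout mice, with Plcd4 at -0.44 (adjusted p = 0.158 by edgeR). The cause of these changes was not tested. No exact test was run for Plcd4 under DESeq2, the block or the covariates. Counts of 209 reads or more per library stood behind every member.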
